A study of Mus musculus with 21 samples.

Results

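The enzymes that write, copy and erase DNA methylation, and the core of Polycomb repressive complex 2 (PRC2), were followed across 21 single-cell RNA libraries of cultured mouse CD8 T cells. The 9 genes, Dnmt1, Dnmt3a, Dnmt3b, Tet1, Tet2, Tet3, Ezh2, Eed and Suz12, were taken by name from the 17516 gene symbols of the tables, and all 9 were found. The cells carried OT1, a transgenic T cell receptor for a peptide of ovalbumin, the labels naming no strain or age. The naive library was made before culture, on day 0. All others came from cells activated with beads that bear antibodies to CD3 and CD28. Of these, 2 libraries had no added cytokine (days 3 and 5), and 18 had IL-2, IL-15 or IL-2v, described in the labels as a mutant IL-2, at 5 or 50 IU/mL on days 3, 5 and 10. Each condition had 1 library, so no spread between replicates could be estimated, and every interval below covers counting error only. The cytokine libraries cross cytokine, dose and day, and pairs matched for the other factors are described by their signs and medians. No model over the crossed conditions was fitted here, so no difference below was tested. A further time point named in the culture protocol was not analysed here. On 6 libraries the treatment label named another interleukin than the title. All 6 were at 50 IU/mL with IL-2 or IL-15 in the title, and the titles were followed. The labels' extraction text speaks of sorted tumour-infiltrating cells and the growth text of this culture, so a sort of the cultured cells is not settled by them.

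DNMT1 copies methyl marks onto the new DNA strand behind the replication fork, guided by UHRF1, whereas DNMT3A and DNMT3B place marks on unmethylated DNA. The TET proteins oxidise methylated cytosine, the first step of its removal. In PRC2, EZH2 is the catalytic subunit that methylates histone H3 at K27, EED binds that mark and stimulates EZH2, and SUZ12 is the scaffold of the complex. In CD8 T cells DNA methyltransferases and PRC2 are known for silencing naive and memory genes during effector differentiation, and loss of TET2 is known to favour memory-like cells.

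After filtering, 3250 to 7105 cells per library remained, with 10589950 to 32648496 unique molecular identifiers (UMIs, each marking 1 captured RNA molecule) in all and a median of 3016 to 5065 per cell. Levels are CPM, the UMIs of a gene scaled to a common library total. Cd3d was seen in 93.0% to 99.5% of cells of each library and Cd3e in 72.0% to 92.8%. Cd8b1 was seen in 54.5% to 92.0% and Cd8a in 37.0% to 74.2%. Of the markers of other lineages Ms4a1, Lyz2, Csf1r and Ncr1 were in at most 0.126% of cells. Cd4 was in at most 1.49%, Cd79b in at most 7.45%, Cd68 in at most 7.39% and Klrb1c in at most 13.0%. Any 2 libraries shared 1 to 19 cell barcodes, at most 0.34% of the smaller one. Cells with a UMI of Mki67 or Top2a, genes of late S phase to mitosis, made up 3.01% of naive cells, 60.0% on day 3 without cytokine, 86.9% on day 3 with 50 IU/mL IL-2v and 5.21% on day 10 with 5 IU/mL IL-15. Such cells are called Mki67/Top2a-positive below and all others negative. The positive cells were deeper than the negative cells in every library (medians of 3546.5 to 6424 against 2634 to 4958 UMIs), and a dividing cell without such a UMI counts as negative.

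Because Dnmt1, Ezh2 and Suz12 moved together across libraries, their promoters are shown, as RefSeq gives them on GRCm38.p6 (mm10) from 250 bases before to 50 after the start. Capitals mark matches to TTTNNCGC on either strand, a pattern like the sites bound by E2F factors, which drive genes of S phase. The window holds 1 match in Ezh2 and Suz12 and 3 in Dnmt1, 2 of which overlap and are printed as 1 run of capitals.
Ezh2 promoter (chr6:47594981-47595280, minus strand): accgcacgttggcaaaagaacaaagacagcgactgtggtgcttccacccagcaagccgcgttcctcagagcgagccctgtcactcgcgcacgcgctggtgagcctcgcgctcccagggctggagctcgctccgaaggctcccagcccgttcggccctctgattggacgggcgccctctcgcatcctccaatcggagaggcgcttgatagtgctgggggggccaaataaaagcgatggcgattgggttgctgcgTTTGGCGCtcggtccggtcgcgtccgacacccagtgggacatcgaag
Suz12 promoter (chr11:79992856-79993155, plus strand): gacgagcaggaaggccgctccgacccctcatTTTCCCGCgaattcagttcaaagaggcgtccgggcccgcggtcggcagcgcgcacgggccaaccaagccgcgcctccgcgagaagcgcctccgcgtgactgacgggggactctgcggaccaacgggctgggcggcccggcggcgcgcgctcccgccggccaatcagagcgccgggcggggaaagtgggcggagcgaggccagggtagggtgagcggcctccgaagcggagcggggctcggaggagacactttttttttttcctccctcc
Dnmt1 promoter (chr9:20952574-20952873, minus strand): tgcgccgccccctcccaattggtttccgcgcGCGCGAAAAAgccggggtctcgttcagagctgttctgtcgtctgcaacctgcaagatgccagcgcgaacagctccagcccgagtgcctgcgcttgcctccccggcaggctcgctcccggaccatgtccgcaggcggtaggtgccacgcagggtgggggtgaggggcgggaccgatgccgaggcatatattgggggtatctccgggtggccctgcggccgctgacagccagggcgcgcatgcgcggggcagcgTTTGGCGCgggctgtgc
The pattern is in 5.17% of all 32851 promoter windows of this table and in 3 of the 13 windows of the 9 genes, which are these 3. RefSeq lists 3 windows for Dnmt1, and the one printed is the 1 with a match. It lies inside the gene as GENCODE places it, and the window at the GENCODE start (20959839 to 20960138) has no match. The printed window of Ezh2 (47594981 to 47595280) also lies inside its gene, whose GENCODE start is at 47595341. Uhrf1, which is not among the 9, has a match in each of its 2 windows. TTTGAA, the core of an element found in genes of G2 and mitosis, is in 17.9% of all windows and in those of Dnmt3b, Eed, Dnmt1 and Suz12, and TTCNNNGAA, the form of a STAT5 site, in 8.30% of all windows and in none of the 13. For Dnmt1 the TTTGAA match is in the unprinted window at the GENCODE start. A match is a description of these letters and not a bound site.

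The naive cells set the starting point. They held 94.4 CPM of Tet3 (95% Poisson interval 90.0 to 98.9), above all 20 activated libraries, the next being 70.0 CPM (66.6 to 73.5). Tet1 at 17.3 CPM (15.5 to 19.3) and Dnmt3a at 45.3 CPM (42.3 to 48.4) were also the highest of the 21 libraries, and Ezh2 at 30.9 CPM (28.4 to 33.6) the lowest, but these 3 intervals overlapped that of the nearest library. In the 20 activated libraries Dnmt1 ran from 28.2 to 304 CPM with a median of 127, and Ezh2 from 33.4 to 265 CPM with a median of 130. Suz12 ran from 44.8 to 175 CPM, Tet2 from 21.3 to 91.6 CPM and Eed from 22.8 to 68.3 CPM. The narrowest ranges among the 9 were those of Tet3 (38.9 to 70.0 CPM), Dnmt3a (21.6 to 43.2 CPM) and Dnmt3b (5.32 to 13.9 CPM), with the highest library 1.80-fold, 2.0-fold and 2.61-fold above the lowest. Ranked over all 21 libraries, neighbours had overlapping intervals in 10 of 20 steps for Ezh2 and 11 of 20 for Dnmt1, but in all 20 for Dnmt3a and Dnmt3b, 19 for Tet3, 18 for Tet1 and Eed, and 16 for Tet2 and Suz12. The order of single libraries is thus resolved best for Dnmt1 and Ezh2.

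**Figure D1:**
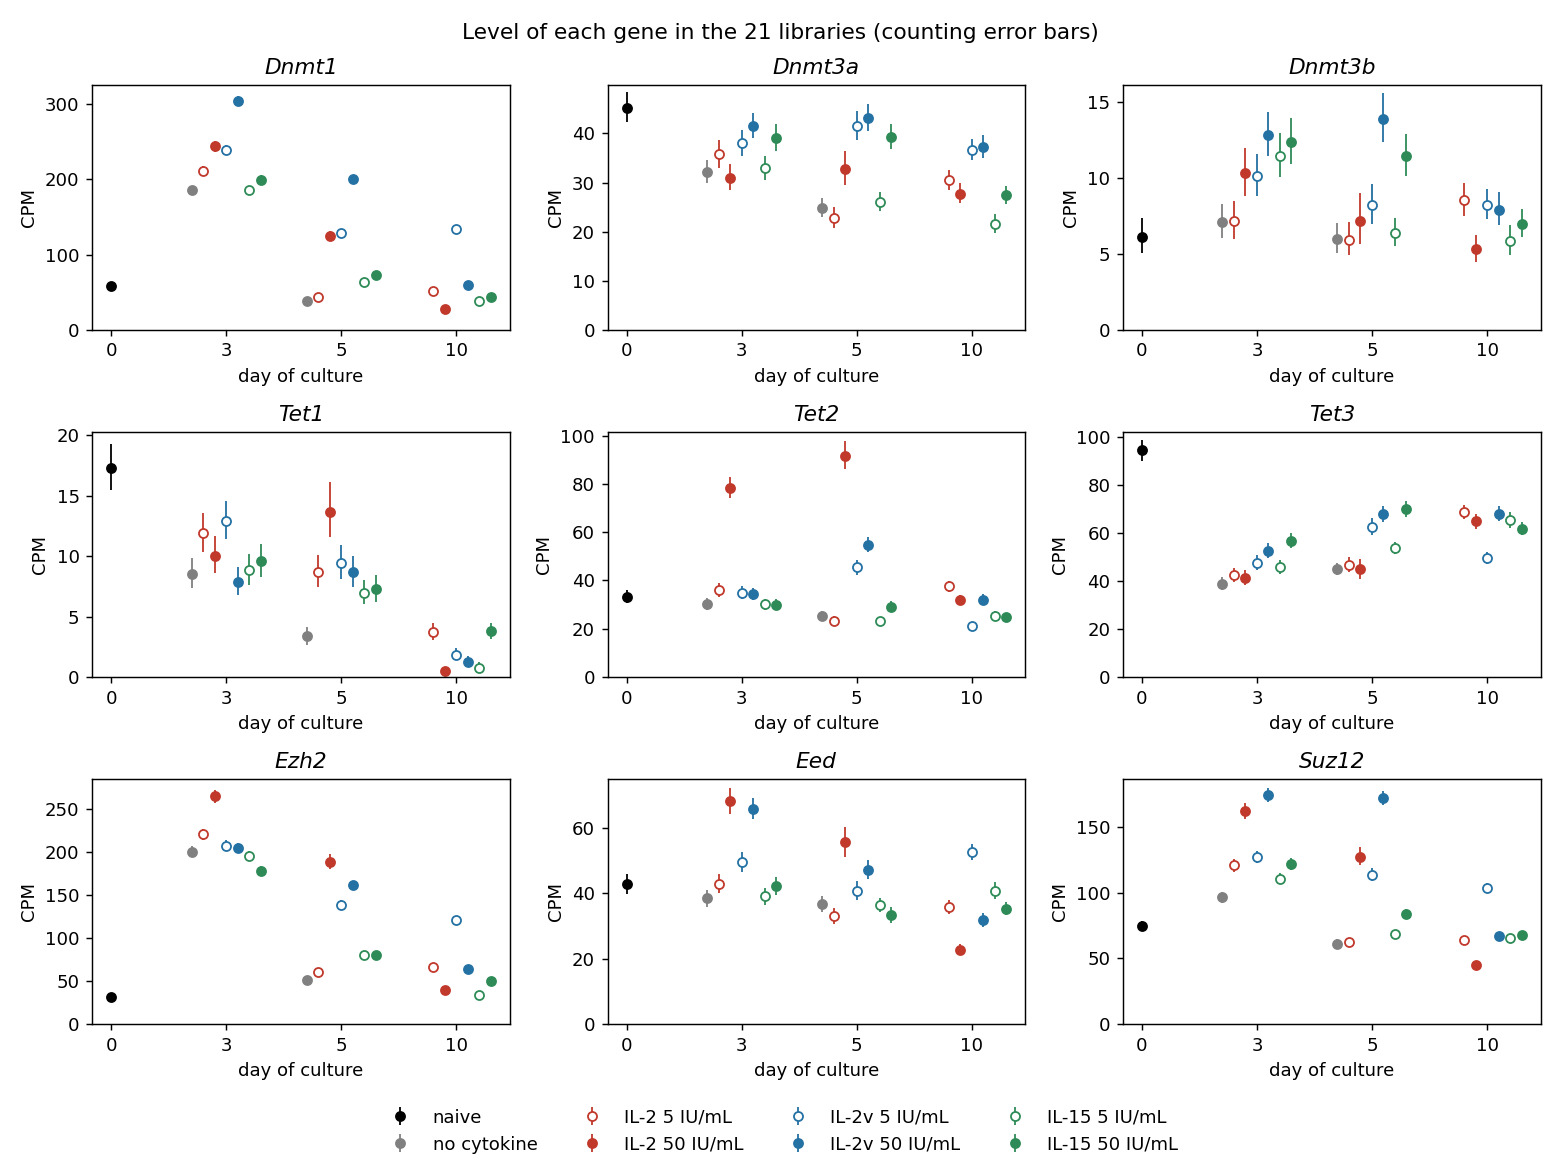
Level of each of the 9 genes in CPM (vertical axis, linear from 0) against the day of culture (horizontal axis) in the 21 libraries, 1 point per library, coloured by cytokine and filled for 50 IU/mL, with 95% Poisson intervals as bars. Dnmt1, Ezh2 and Suz12 are high on day 3, Tet2 stands out in 50 IU/mL IL-2 on days 3 and 5 at 78.4 and 91.6 CPM, and Tet1 is at most 3.77 CPM in all 6 libraries of day 10.

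In the positive cells of each activated library, Dnmt1, Ezh2, Suz12 and Eed were higher than in its negative cells, in 20 of 20 libraries for each, whereas the other 5 genes showed no common direction. The median difference on the log2(CPM + 1) scale was 1.93 for Dnmt1, 1.43 for Ezh2, 0.87 for Suz12 and 0.48 for Eed, and the interval of the ratio excluded 1 in 19, 20, 19 and 17 libraries. On day 3 without cytokine Dnmt1 was at 246 CPM in positive and 56.3 CPM in negative cells, a ratio of 4.37 (3.94 to 4.86), and Ezh2 at 253 and 88.3 CPM, a ratio of 2.87 (2.63 to 3.12). Suz12 was at 119 and 49.1 CPM there, a ratio of 2.42 (2.16 to 2.72). All 3 genes thus stood higher in the positive cells by more than counting error.

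A 2-fold rule was used throughout: a gene at 20 CPM or more in either arm was counted as higher or lower where the log2 difference was at least 1 in size, and with several pairs of libraries where all had one sign and the median was at least 1. By it 2 of the 7 genes that could be counted, Dnmt1 and Ezh2, were higher in positive cells and 0 lower, against 3.18% of the 5746 genes counted higher and 0.0348% lower. Asking only for one sign in all 20 libraries, 4 of the 7 were higher and 0 lower, against 11.0% and 3.25% of all genes. For the other comparisons the share of all genes that keep one sign is not given here. Dnmt3b and Tet1 never reached 20 CPM in any library and are given by their values only. For Dnmt1, Suz12 and Eed the difference was smallest on day 10 with 5 IU/mL IL-15, where 284 of 5451 cells were positive, and for Ezh2 on day 3 with 50 IU/mL IL-2v (211 against 142 CPM). In that IL-15 library Dnmt1 was at 40.5 CPM in them and 37.5 CPM in the others, a ratio of 1.08 (0.81 to 1.41). Thinning each cell to 2000 UMIs before classing it is a random draw, and Dnmt1 met the rule in 15 of 20 such draws and Ezh2 in all 20. In the other 5 draws Dnmt1 was higher in 19 of 20 libraries, and its median lay between 1.71 and 1.83 over all draws. Suz12 kept one sign in all libraries in 13 draws and Eed in 11.

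**Figure D2:**
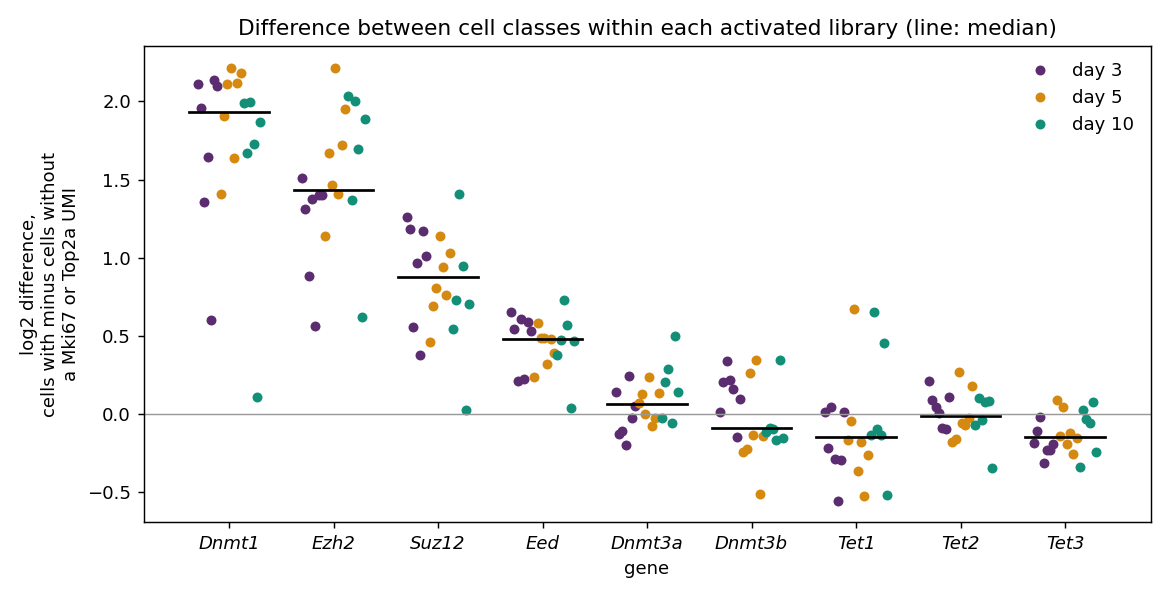
Log2 difference between Mki67/Top2a-positive and negative cells (vertical axis) for each of the 9 genes (horizontal axis), 1 point per activated library coloured by day, with the median of 20 libraries as a line. All 20 points lie above 0 for Dnmt1, Ezh2, Suz12 and Eed, with medians of 1.93, 1.43, 0.87 and 0.48, while the medians of the other 5 genes lie between -0.15 and 0.06.

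The remaining genes were level or slightly lower in positive cells. Dnmt3a was higher in 12 of 20 libraries (median 0.06), Dnmt3b in 9 (median -0.09), Tet2 in 10 (median -0.01) and Tet1 in 6 (median -0.15). Tet3 was lower in 16 of 20 libraries, 8 of them by more than the interval, at a median of -0.15.

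Cells were also sorted into 4 classes by adding Mcm5 and Mcm6, subunits of the replicative helicase that are made from late G1 into S phase. The median over the 20 activated libraries for Dnmt1 was 35.2 CPM in cells with neither pair, 69.1 CPM in cells with Mcm5 or Mcm6 alone, 237 CPM in cells with both pairs and 123 CPM in cells with Mki67 or Top2a alone. Ezh2 followed with 47.9, 57.5, 211 and 149 CPM, and Suz12 with 58.0, 73.0, 152 and 91.8 CPM. Cells with both pairs thus held the most of all 3 genes, above cells with Mki67 or Top2a alone in 20 of 20 libraries for Dnmt1 and 19 of 20 for Ezh2 and Suz12. In cells with Mcm5 or Mcm6 alone, Dnmt1 was higher than in cells with neither in 20 of 20 libraries (median ratio 1.76) and Ezh2 in 17 of 20 (median ratio 1.26). Eed was flatter at 32.8, 37.5, 51.6 and 38.0 CPM, and Dnmt3a stayed between 30.6 and 35.1 CPM. These classes differ in depth and were made from detection of single UMIs, so a class mixes phases.

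**Figure D3:**
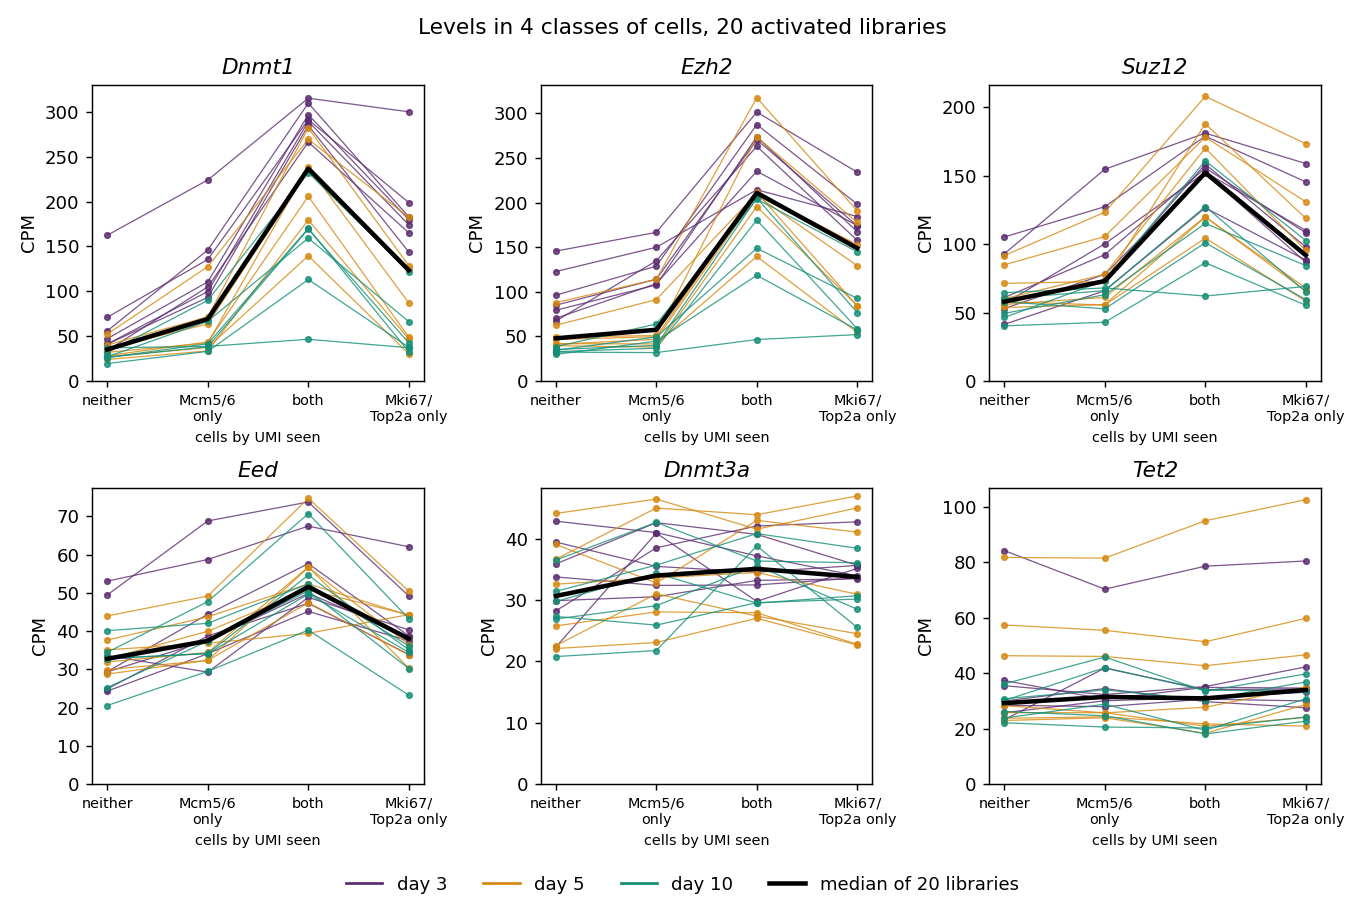
CPM (vertical axis, linear from 0) of 6 genes in 4 classes of cells defined by which UMIs were seen (horizontal axis), with 1 thin line per activated library coloured by day and the median of 20 libraries in black. For Dnmt1 the median is highest, at 237 CPM, in cells with both pairs of genes and lowest, at 35.2 CPM, in cells with neither, while Dnmt3a and Tet2 are nearly flat.

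The first comparison was that of naive cells with cells activated for 3 days without added cytokine. Dnmt1 was at 58.3 CPM in naive and 186 CPM in activated cells, 3.19-fold higher (2.98 to 3.42), and Ezh2 at 30.9 and 200.5 CPM, 6.48-fold higher (5.94 to 7.09). Tet3 was at 94.4 CPM in naive and 38.9 CPM in activated cells, a ratio of 0.41 (0.38 to 0.45). By the 2-fold rule 2 of 7 genes, Dnmt1 and Ezh2, were higher and 1, Tet3, lower, against 11.1% and 8.31% of 6171 genes. Suz12 was 1.30-fold higher, Dnmt3a had a ratio of 0.71, and Tet1, at 17.3 CPM in naive cells, a ratio of 0.49 (0.41 to 0.59). Tet2, Eed and Dnmt3b had ratios of 0.91, 0.90 and 1.16, so the 3 subunits of PRC2 did not move as 1 block.

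Negative cells separated Dnmt1 from Ezh2 at this step. Among them Dnmt1 was at 54.7 CPM in naive and 56.3 CPM in activated cells, a ratio of 1.03 (0.91 to 1.16). Ezh2 was at 26.2 and 88.3 CPM, a ratio of 3.37 (2.98 to 3.80). The negative class still holds cells with Mcm5 or Mcm6, 827 of 4633 in the naive library and 482 of 1784 on day 3. In cells with neither pair of genes Dnmt1 was at 54.5 CPM in naive (50.7 to 58.4) and 34.0 CPM in activated cells (29.0 to 39.6) and Ezh2 at 26.2 and 79.3 CPM. Suz12 (72.7 and 49.1 CPM) and Eed (42.1 and 27.4 CPM) were lower in the negative activated cells by 0.55 and 0.60 on the log2 scale, and Tet3 by 1.12. Ezh2 was therefore above its naive level in both sets of cells, and Dnmt1 was level in the first and lower in the second. In the 144 positive naive cells the levels were 144 CPM of Dnmt1 and 146 CPM of Ezh2.

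Without cytokine, day 5 was then set against day 3. Positive cells made up 13.8% on day 5. Dnmt1 was at 39.0 CPM on day 5 against 186 CPM on day 3, a ratio of 0.21 (0.20 to 0.22), and Ezh2 at 51.3 against 200.5 CPM, a ratio of 0.26 (0.24 to 0.27). By the rule 0 of 7 genes were higher and 2, Dnmt1 and Ezh2, lower, against 3.61% and 9.47% of 5785 genes. Suz12 had a ratio of 0.64, Dnmt3a of 0.77 and Tet1 of 0.39 (3.35 against 8.54 CPM), while Eed at 0.95 (0.87 to 1.05) did not differ beyond counting error and Tet3 was 1.15-fold higher (1.05 to 1.26). The lower Dnmt1 and Ezh2 were seen within each class of cells, by 1.61 and 1.43 on the log2 scale in positive cells and by 0.90 and 1.06 in negative cells. Suz12 was lower by 0.58 in positive cells but higher by 0.22 in negative cells.

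Each cytokine library was set against the cytokine-free library of its day, a control that all 6 share. On day 3, of 42 values (7 genes in 6 libraries) 1 was higher and 0 lower, against 2.70% and 0.897% of 34779 values for all genes. The value was Tet2 in 50 IU/mL IL-2, at 78.4 CPM against 30.2 CPM, 2.60-fold (2.37 to 2.86). Tet2 in the other 5 libraries of day 3 was between 29.8 and 36.0 CPM. Suz12 was above the control in 6 of 6 libraries beyond counting error, from 1.15-fold in 5 IU/mL IL-15 to 1.80-fold in 50 IU/mL IL-2v, and Dnmt1 in 5 of 6, up to 1.63-fold, though its 1.07-fold in 50 IU/mL IL-15 turned to -0.01 on the log2 scale under TMM factors (trimmed mean of M values, another scaling of the libraries). Ezh2 lay between 0.89-fold and 1.32-fold. Dnmt3b, under the 20 CPM floor, was above the control of 7.10 CPM in 6 of 6 libraries, 5 of them beyond counting error, at a median of 0.55 and up to 1.81-fold (12.8 CPM in 50 IU/mL IL-2v). In negative cells alone 6 of the 42 values were higher, against 1754 of 33221 values for all genes in those cells. They were Dnmt1 in 50 IU/mL IL-2v (206 against 56.3 CPM), Tet2 in 50 IU/mL IL-2, and Suz12 and Eed in 50 IU/mL IL-2 and 50 IU/mL IL-2v (Suz12 at 118 and 137 against 49.1 CPM). The negative classes were unlike: 420 of 631 cells in 50 IU/mL IL-2v and 473 of 908 in 50 IU/mL IL-2 held Mcm5 or Mcm6, against 482 of 1784 in the control. In cells with neither pair of phase genes, 211 of them in 50 IU/mL IL-2v, Dnmt1 was at 163 CPM there and 34.0 CPM in the control.

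On day 5 the libraries spread apart. Of 42 values 10 were higher and 0 lower, against 9.94% and 3.20% of 34530 values. Dnmt1 was at 39.0 CPM without cytokine, at 43.3 and 124 CPM in 5 and 50 IU/mL IL-2, at 129 and 199.8 CPM in IL-2v, and at 63.5 and 72.3 CPM in IL-15. Ezh2 followed at 51.3, then 60.7 and 189, 138 and 161, and 79.9 and 80.8 CPM in the same order. The library of 50 IU/mL IL-2 and the pair of IL-2v libraries thus stood above the rest for both genes, at 2.70-fold to 5.13-fold over the control. Suz12 met the rule in 50 IU/mL IL-2 (128 CPM) and 50 IU/mL IL-2v (172 CPM), against 61.4 CPM, and Tet2 in the same 2 libraries. In 5 IU/mL IL-2 the 7 genes lay between 0.90-fold (Eed) and 1.18-fold (Ezh2) of the control. Tet1, under the floor, was above its 3.35 CPM without cytokine in 6 of 6 libraries, each beyond counting error, at a median of 1.15, from 2.09-fold in 5 IU/mL IL-15 to 4.09-fold in 50 IU/mL IL-2, with 2.59-fold (8.68 CPM) in 5 IU/mL IL-2. The share of positive cells was also highest in those libraries on day 5, at 66.7% in 50 IU/mL IL-2v, 50.4% in 50 IU/mL IL-2 and 39.8% in 5 IU/mL IL-2v, against 13.8% to 24.6% in the remaining libraries of that day. In negative cells alone 4 of the 42 values were higher, against 2391 of 33478 for all genes, which is near that background, with Dnmt1 and Ezh2 each in 1 library. Leaving out the libraries of IL-2v left 4 values higher, and leaving out those of IL-2 left 6. Shares of all values in those smaller sets are not given here.

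IL-2v was next compared with IL-2 in 6 pairs matched for dose and day. Dnmt1 was higher with IL-2v in 6 of 6 pairs, each beyond counting error, with a median log2 difference of 0.87. The pairs on day 3 were close (239 against 212 CPM at 5 IU/mL and 304 against 244 CPM at 50 IU/mL). They were wider on day 5 (129 against 43.3 CPM, and 199.8 against 124 CPM) and on day 10 (133 against 51.1 CPM, and 59.9 against 28.2 CPM). Suz12 (median 0.50) and Dnmt3a (median 0.40) were also higher in 6 of 6 pairs, each in 5 of them beyond counting error. The number of all genes with one sign in these pairs is not given here. Ezh2 was not of one sign: with IL-2v it was 2.28-fold higher at 5 IU/mL on day 5, but at 50 IU/mL on day 3 it had a ratio of 0.77 (0.74 to 0.81). By the rule 0 of 7 genes were higher and 0 lower, against 1.04% and 0.274% of 5839 genes. Without the pairs of day 3 Dnmt1 met it, at a median of 1.22, but the share of all genes in that set is not given here. Dnmt1 was higher with IL-2v in 6 of 6 pairs among positive cells (median 0.59) and among negative cells (median 0.84).

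For IL-15 against IL-2, Tet2 was the 1 gene of the 9 with the same sign in all pairs. It was lower with IL-15 in 6 of 6 pairs at a median of -0.44, from 29.1 against 91.6 CPM at 50 IU/mL on day 5, a ratio of 0.32 (0.29 to 0.35), to 23.0 against 23.2 CPM at 5 IU/mL on day 5, a ratio of 0.99 (0.88 to 1.12). How many of all genes keep one sign in these pairs is not given here. Among the other genes of the 9 Dnmt1 was higher in 2 pairs and lower in 4. By the rule 0 of 7 genes were higher and 0 lower, against 0.490% and 1.70% of 5718 genes.

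Between IL-2v and IL-15, Dnmt1 (median 0.81), Ezh2 (median 0.56) and Dnmt3a (median 0.31) were higher with IL-2v in 6 of 6 pairs, but Dnmt3a at 50 IU/mL on day 5 turned from 0.13 to -0.10 under TMM factors and to -0.05 with totals that leave out ribosomal protein and mitochondrial genes. The widest pair was 5 IU/mL on day 10, where Dnmt1 was at 133 against 37.7 CPM, 3.54-fold (3.29 to 3.81), and Ezh2 at 122 against 33.4 CPM, 3.64-fold (3.37 to 3.94). Positive cells made up 40.6% with IL-2v and 5.21% with IL-15 in that pair. In negative cells Dnmt1 was higher in 6 of 6 pairs (median 0.60) and Ezh2 in 5 of 6 (median 0.35). In positive cells Dnmt1 was higher in 6 of 6 (median 0.44), but Ezh2 in 3 of 6 and lower in 3 (median 0.10). By the rule 0 of 7 genes were higher and 0 lower, against 2.48% and 0.585% of 5810 genes. The number of all genes with one sign in these pairs is not given here. Dnmt1 met the rule without the pairs of day 3, at a median of 1.23, and when cells with over 2 times the median UMIs were left out, at 1.12. For both settings the share of all genes is not given here.

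Raising the dose of IL-2 from 5 to 50 IU/mL went with more Tet2 on days 3 and 5 but not on day 10. Tet2 was at 36.0 and 78.4 CPM on day 3, 2.18-fold (1.98 to 2.39), at 23.2 and 91.6 CPM on day 5, 3.95-fold (3.53 to 4.42), and at 37.5 and 31.7 CPM on day 10, a ratio of 0.85 (0.77 to 0.92). It was of like size in both classes of cells: 2.15-fold and 4.64-fold in positive cells on days 3 and 5, and 2.22-fold and 3.43-fold in negative cells. The 50 IU/mL library of day 5 was the smallest of the 21, with 10589950 UMIs, 3250 cells and a median of 3016 UMIs per cell. In whole libraries Dnmt1, Ezh2, Suz12 and Eed were also higher at 50 IU/mL on days 3 and 5 and lower on day 10. On day 10 they were at 28.2, 39.1, 44.8 and 22.8 CPM in 50 IU/mL IL-2 against 51.1, 65.7, 63.8 and 35.7 CPM in 5 IU/mL. At 5 and 50 IU/mL positive cells made up 62.8% and 73.8% on day 3, 18.7% and 50.4% on day 5, and 18.2% and 13.4% on day 10. Dnmt1 in positive cells was at 272 and 278 CPM on day 3 and at 98.6 and 183 CPM on day 5. In negative cells it was at 69.3 and 108 CPM on day 3 and at 25.6 and 41.6 CPM on day 5. The rule counted 0 of 7 genes higher and 0 lower, against 4.29% and 2.70% of 5879 genes. Tet2 met it without day 10, at a median of 1.52, and under TMM factors, which turned the sign of day 10 to 0.06. Under TMM factors 267 of 5889 of all genes were higher, and the share without day 10 is not given here.

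With IL-2v, Dnmt1 on days 3 and 5 was 1.27-fold and 1.55-fold higher at 50 IU/mL, and on day 10 it had a ratio of 0.45 (0.42 to 0.48), with 59.9 against 133 CPM. Tet2 was at 34.8 and 34.3 CPM on day 3, 45.4 and 54.7 CPM on day 5 and 21.3 and 32.0 CPM on day 10. The rule counted 0 of 7 higher and 0 lower, against 2.38% and 0.626% of 5913 genes. With IL-15 Dnmt1 was 1.07-fold to 1.16-fold higher at 50 IU/mL on all 3 days and Dnmt3a 1.19-fold to 1.51-fold, and 0 of 7 genes met the rule in either direction, against 0.869% higher and 0.181% lower of 5523 genes.

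**Figure D4:**
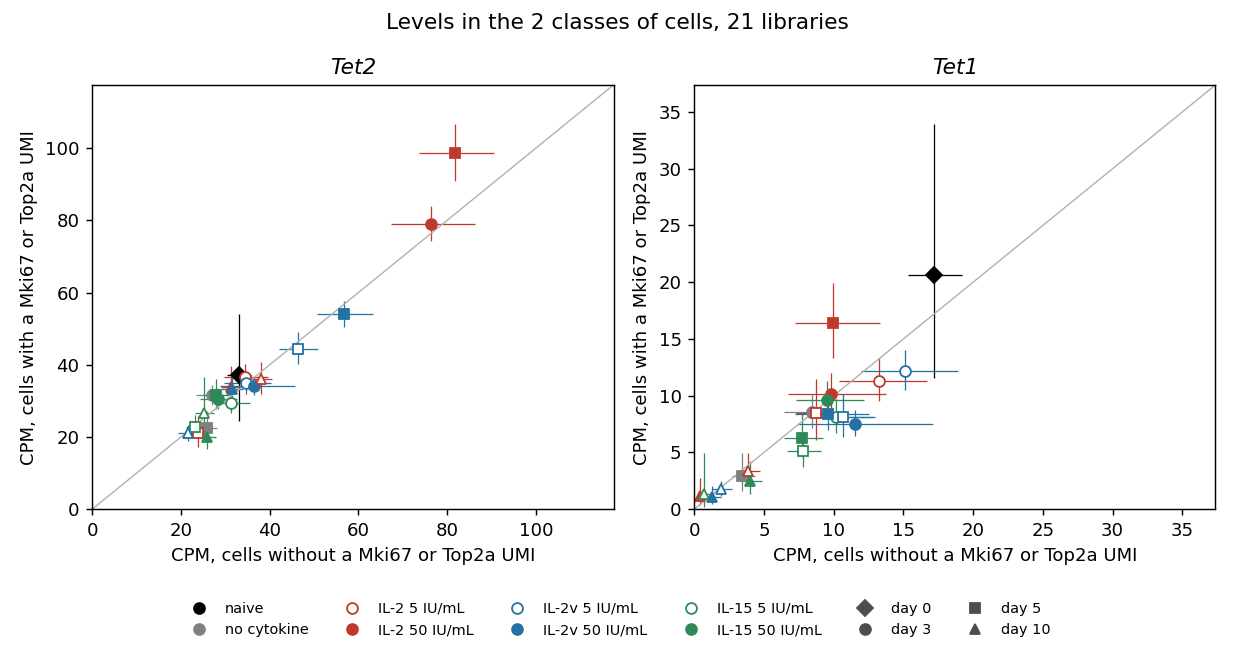
Tet2 (left) and Tet1 (right) in CPM in Mki67/Top2a-positive cells (vertical axis) against negative cells (horizontal axis) of the 21 libraries, with 95% Poisson intervals as bars, colour and fill for cytokine and dose, symbols for the day and a line of equal levels. Tet2 in 50 IU/mL IL-2 lies apart in both classes at 78.9 and 76.3 CPM on day 3 and 98.7 and 81.8 CPM on day 5, and the 6 libraries of day 10 lie at the low end for Tet1.

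Over time within a cytokine and dose, Dnmt1 was lower on day 5 than on day 3 in 6 of 6 pairs, with a median log2 difference of -1.21 and a range of -2.26 (5 IU/mL IL-2) to -0.60 (50 IU/mL IL-2v). Ezh2 (median -0.85), Suz12 (-0.44) and Eed (-0.31) were lower in 6 of 6 as well. Tet3 was higher in 6 of 6 at a median of 0.26, and 5 of these pairs were beyond counting error. The number of all genes with one sign in these pairs is not given here. By the rule 0 of 7 were higher and 1, Dnmt1, lower, against 0.829% and 2.22% of 5912 genes. Dnmt1 did not meet the rule without IL-15 (median -0.93), and Ezh2 met it without IL-2v (median -1.20). Shares of all genes in those smaller sets are not given here. Dnmt1 was lower in 6 of 6 pairs within positive cells (median -0.68) and within negative cells (median -1.17), and so was Ezh2 (medians of -0.30 and -0.97).

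From day 5 to day 10 Tet1 was the 1 gene of the 9 with the same sign in all pairs. It was at 6.99 to 13.7 CPM in the 6 cytokine libraries of day 5 and at 3.73, 0.51, 1.84, 1.25, 0.77 and 3.77 CPM in those of day 10 (5 then 50 IU/mL IL-2, IL-2v and IL-15), from 111, 14, 60, 34, 18 and 120 UMIs. The groups did not overlap, but the cytokine-free library of day 5, at 3.35 CPM, lay within the range of day 10. How many of all genes keep one sign or separate in this way is not given here. All 6 ratios lay below 1 beyond counting error, from 0.04 (0.02 to 0.06) in 50 IU/mL IL-2 to 0.52 (0.41 to 0.66) in 50 IU/mL IL-15. The difference had the same sign in positive cells (6 of 6, median -1.55) and in negative cells (6 of 6, median -2.10). The Tet1 transcript is too sparse for the 20 CPM floor, and its median of -1.99 met the 2-fold size when the floor was dropped. Without the floor the share of all genes is not given here. Of the 7 genes above the floor 0 were higher and 0 lower by the rule, against 0.0705% and 1.62% of 5676 genes. Dnmt1 fell past 2-fold in 50 IU/mL IL-2 (124 to 28.2 CPM) and 50 IU/mL IL-2v (199.8 to 59.9 CPM) and was 1.18-fold and 1.03-fold in the 5 IU/mL libraries of both. Positive cells went from 50.4% to 13.4% and from 66.7% to 25.0% at 50 IU/mL, and from 18.7% to 18.2% and from 39.8% to 40.6% at 5 IU/mL. At 50 IU/mL Dnmt1 went from 183 to 68.4 CPM and from 243 to 118 CPM in positive cells. In negative cells it went from 41.6 to 20.9 CPM and from 77.4 to 35.0 CPM. Tet3 on day 10 was between 49.4 and 68.8 CPM and so stayed below its naive 94.4 CPM.

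The other genes of these pathways were counted over whole lists, and those named are among the highest and lowest of their list in a comparison, so their values illustrate the counts and are no separate support. On activation 4 of 6 partners of maintenance methylation were higher by the 2-fold rule and 0 lower, against 11.1% and 8.31% of all genes, with a median of 1.93 against -0.11. Uhrf1, which recruits DNMT1 to half-methylated sites, was at 5.41 CPM in naive and 104 CPM in activated cells, and Hells, a chromatin remodeller needed for methylation, was higher by 2.56 on the log2 scale, while Usp7 (-0.44) and Uhrf2 (-0.18) were not. Without cytokine 4 of 6 were lower on day 5, against 9.47% of all genes, with Uhrf1 at -3.69. With cytokine 1 of 36 values was higher on day 3, against 2.70% of all values. On day 5, 17 of 34 values of 6 genes, all against the 1 shared control, were higher, against 9.94% of all values (median 0.99 against 0.06), and 5 of them were of Uhrf1. With IL-2v against IL-2, 2 of 6 were higher, against 1.04% of all genes, namely Uhrf1 (1.23) and Cdca7 (1.70), a partner of Hells. Dnmt3l, the partner without catalytic activity of the DNMT3 enzymes, had 1 UMI in 50 IU/mL IL-2 on day 10 and none in any other library. The level of Uhrf1 in cells with neither pair of phase genes reached as low as 0.31 CPM (5 IU/mL IL-2, day 5) beside 44.1 CPM in positive cells of that library.

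Of the accessory subunits of PRC2, on activation 1 of 9 was higher (Epop, 1.38) and 2 lower (Phf1, -2.26, and Lcor, -1.20), against 11.1% and 8.31% of all genes. In positive against negative cells, where 3.18% of all genes were higher, 1 of 7 was, Rbbp7 (1.05), a histone chaperone shared with other complexes, and Rbbp4 was at 0.78. Ezh1, the alternative catalytic subunit, did not follow Ezh2: it was lower in positive cells in 18 of 20 libraries (median -0.29), lower in cells with both pairs of phase genes (median 25.8 CPM) than with neither (39.7 CPM), and higher on day 5 than on day 3 in 6 of 6 pairs (median 0.80). Its highest library was 50 IU/mL IL-2 on day 5 at 80.1 CPM, and its lowest 50 IU/mL IL-2v on day 3 at 18.5 CPM. Of PRC1, the complex that ubiquitinates histone H2A, 0 of 12 subunits met the rule on activation and 0 of 10 in positive cells, which against the shares of all genes just given sets PRC1 apart in neither.

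Of the readers of methylated DNA and repair enzymes 2 of 9 were higher and 1 lower on activation, against 11.1% and 8.31% of all genes (median -0.19 against -0.11), and 1 of 9 was higher and 2 lower without cytokine on day 5, against 3.61% and 9.47%. Among them Neil3, a glycosylase of dividing cells, was higher on activation (4.37) and in positive cells (4.11, 20 of 20), while Zbtb4, a repressor that binds methylated DNA, was lower on activation (-2.05) and higher again without cytokine on day 5 (1.19). Tdg, which excises oxidised cytosine downstream of the TET proteins, was lower at that step (17.1 against 35.4 CPM). For IL-15 against IL-2 the list had 1 of 8 lower, Gadd45g (-1.96), against 1.70% of all genes. For IL-2v against IL-15 it had 2 of 9 higher, Gadd45g (2.41) and Neil3, against 2.48%. Of the demethylases of H3K27 and deubiquitinases of H2A, 0 of 6 were higher and 1 lower on activation, against 11.1% and 8.31%, and 1 of 5 was higher and 0 lower for the dose of IL-2, against 4.29% and 2.70% of all genes. The gene was Kdm6b in both. Kdm6b, which removes the methyl groups that EZH2 places, was lower on activation (-1.18) and higher at 50 than at 5 IU/mL IL-2 on 3 of 3 days (1.16). In the list on supply of methyl donor and 2-oxoglutarate 2 of 8 were higher and 0 lower on activation, against 11.1% and 8.31% of all genes, with a median of -0.02. Ahcy, which clears the product of methyltransferases, was higher by 2.01 on activation and Mthfd2 by 1.19. For the dose of IL-2, 2 of 6 were higher and 0 lower, against 4.29% and 2.70%, Shmt2 (1.78) and Mthfd2 (1.75).

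Likeness was measured by Pearson's r of log2(CPM + 1) over the 21 libraries among 5495 genes, which share libraries, depth and the mix of dividing cells. The most like genes were Cbx5 (0.99), Cdt1 and Atad5 for Dnmt1, Lig1 (0.99), Ccdc34 and Ncapd2 for Ezh2, Ubr7 (0.97), Actn4 and Cstf2 for Suz12, and Rad50 (0.91), U2surp and Smc3 for Eed. They were Setd5 (0.94), Gtf2e2 and Ecpas for Tet2, N4bp2 (0.92), Lbh and Dgkz for Tet1, Cdk13 (0.90), Tasor2 and Ice1 for Tet3, Atp8b2 (0.89), Tnk2 and Atp6v0a2 for Dnmt3a, and Uri1 (0.88), Zmpste24 and Ythdf1 for Dnmt3b. Among the 9 genes themselves r was 0.94 between Dnmt1 and Ezh2 and between Dnmt1 and Suz12, 0.85 between Eed and Suz12, and -0.65 between Tet3 and Ezh2.

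GENCODE annotation of GRCm38 places Dnmt1 on chromosome 9 (20907209 to 20959888, minus strand), Ezh2 on chromosome 6 (47530139 to 47595341, minus strand), Suz12 on chromosome 11 (79993106 to 80034123, plus strand), Tet2 on chromosome 3 (133463679 to 133545139, minus strand) and Tet1 on chromosome 10 (62804570 to 62908996, minus strand). Transcripts on the opposite strand cover 6.82% of the exonic bases of Eed, 3.60% of Suz12, 2.61% of Ezh2, 0.80% of Dnmt3a and 0.25% of Tet2. Whether the counting used strand is not given in the sources used here, so UMIs from those stretches are uncertain.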

How the data were processed

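The authors deposited 1 table of raw UMI counts per library, and per the submitters' processing notes mm10, Cell Ranger and Seurat 3.0.2 and 4.0.1 were used, in roles not given there. The deposited counts were taken as they stood; 2 of 106458 barcodes failed a floor of 1000 UMIs and 500 genes or a ceiling of 10% mitochondrial UMIs. Doublets were not called, and leaving out cells with over 2 times their library's median UMIs was an alternative. Counts were summed per library, and per library and cell class, and scaled to CPM with Python 3.11.15, numpy 2.4.6, pandas 2.3.3 and scipy 1.17.1. Differences are on the log2(CPM + 1) scale, which understates those of low genes. CPM carry exact Poisson and ratios exact conditional binomial 95% intervals. These cover counting error only, and a larger library gives narrower ones. TMM factors came from edgeR 4.0.16 in R 4.3.3, used for scaling only. Each condition had 1 library. Pairs matched for dose, day or cytokine were summarised by sign and median, no model was fitted over the crossed conditions, and p-values are not given. Thinning was repeated with 20 seeds, an alternative added after 2 seeds gave different calls for Dnmt1. The counting steps were tested on simulated data. Named were the 9 genes, the 2 highest and 2 lowest genes of 6 pathway lists in each comparison, of which some are printed, and for likeness the 3 genes with the highest r. Dnmt3l, and the levels of Uhrf1 and Ezh1 by cell class and library, were added after their values were seen. The genes, lists and comparisons were chosen with earlier results of these data known. Lower RNA per cell and fewer cells of a kind cannot be told apart in a library sum. The libraries hold no cell type known to lack these transcripts, so free RNA was not measured.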

Additional observations from a re-analysis of the deposited data

Results flagged for a closer look

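In whole libraries scaled to CPM, though not under TMM factors, Tet3 had opposite signs with dose in 2 cytokines on every day. With IL-2 it was lower at 50 than at 5 IU/mL on 3 of 3 days, at a median log2 difference of -0.06, and in 0 of 3 pairs beyond counting error (42.4 and 41.2 CPM at 5 and 50 IU/mL on day 3, 46.7 and 44.9 CPM on day 5, 68.8 and 64.8 CPM on day 10). With IL-2v it was higher on 3 of 3 days, at a median of 0.14 and in 3 of 3 pairs beyond counting error (47.6 and 52.6 CPM, 62.6 and 67.8 CPM, 49.4 and 68.0 CPM). The medians differed by -0.20. In positive cells the signs were opposed on day 3 only: with IL-2 Tet3 was higher at 50 IU/mL on 2 of 3 days (median 0.07, 43.3 and 45.4 CPM on day 5, 57.3 and 65.8 CPM on day 10, neither beyond counting error), and with IL-2v on 3 of 3 (median 0.20). In negative cells it was lower on 3 of 3 days with IL-2 (median -0.11) and higher on 3 of 3 with IL-2v (median 0.12). The difference between the cytokines was not tested, and the value of IL-2v on day 5, 0.11, turned to -0.06 under TMM factors and to -0.01 with totals that leave out ribosomal protein and mitochondrial genes. The IL-2 pair of day 10 also turned under TMM factors (1.02 at 5 and 0.82 at 50 IU/mL), to higher at 50 IU/mL. Under TMM factors the signs were thus opposed on day 3 only.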

How the results depend on the processing

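Of the counts of genes meeting the 2-fold rule under other settings, 279 stayed within 1.5 times the reported count and 17 did not. Of the medians of single genes, 1280 moved by less than 1 SD over the pairs (for 1 pair, the counting interval) and 52 by more. Under these settings no gene that met the rule changed sign. Cells with neither pair of phase genes were not a setting for activation. In them Dnmt1, which met the rule in whole libraries, was lower in activated than in naive cells (34.0 against 54.5 CPM). Genes short of the rule did change sign under these settings, among them Suz12 in negative cells. On activation it went from 72.7 to 49.1 CPM there, against 74.6 to 96.7 CPM in whole libraries. From day 3 to day 5 without cytokine it went from 49.1 to 57.4 CPM there, against 96.7 to 61.4 CPM in whole libraries. On activation, totals without ribosomal protein and mitochondrial genes made 2 genes lower (Tet1 joined; 812 of 7801 of all genes), and negative cells left 1 higher (Ezh2; 466 of 5925). Without cytokine, negative cells left 1 gene lower on day 5 (274 of 5490). With cytokine on day 3, negative cells gave 6 values higher and leaving out IL-2 gave 0; on day 5 they gave 4 and 6, and leaving out IL-2v gave 4 (all genes in negative cells: 1754 of 33221 values on day 3 and 2391 of 33478 on day 5). Without day 3 Dnmt1 made 1 gene higher for IL-2v against IL-2 and 1 against IL-15, where 1 also came from leaving out cells of over 2 times the median UMIs and from the mean CPM of single cells. For the dose of IL-2, TMM factors (267 of 5889 of all genes) and leaving out day 10 each gave 1 higher (Tet2). From day 3 to day 5, leaving out IL-2v gave 2 lower and leaving out IL-15 gave 0. From day 5 to day 10, dropping the 20 CPM floor gave 1 lower (Tet1); in 5 of 20 random draws, classing thinned cells took Dnmt1 below the rule in positive cells, a check added after seeing the data. The cause of these changes was not tested beyond fewer or other libraries, cells or genes entering each. Shares of all genes are not given here for the settings that left out libraries, deep cells or the floor. They are also not given for the mean of single cells and for thinned cells. Those counts thus have no background beside them, and with fewer pairs any gene reaches one sign more easily.

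Scaling also moved the background. The share followed here is that of higher genes among all genes that met the 2-fold rule in either direction. For cytokine against none it is a share of values. Under TMM factors this share went from 75.1% to 56.3% for cytokine on day 3, from 75.6% to 58.9% on day 5, from 79.2% to 59.0% for IL-2v against IL-2, from 80.9% to 62.1% for IL-2v against IL-15, from 79.2% to 63.9% for the dose of IL-2v, from 27.2% to 42.9% for day 5 against day 3 and from 27.6% to 38.0% without cytokine on day 5. With totals that leave out ribosomal protein and mitochondrial genes it was 60.9% for cytokine on day 3, 63.3% for IL-2v against IL-15, 50.6% against 61.3% for the dose of IL-2 and 33.8% against 22.4% for IL-15 against IL-2. Under TMM factors the median of all genes went from -0.0016 to 0.12 without cytokine on day 5, from 0.10 to -0.03 for the dose of IL-2v, from -0.10 to 0.01 for day 5 against day 3 and from -0.09 to 0.06 for day 10 against day 5. Of 367 differences of 1 gene in 1 pair of libraries that were beyond counting error, 13 turned sign under TMM factors and 4 without those genes, among them, under TMM factors from day 5 to day 10, Dnmt3a in 3 pairs and Ezh2 in 2.

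The labels give no replicate numbers to block on. Pairs matched for dose, day or cytokine were compared by sign and median, with no model fitted. Tet1 and Dnmt3b stay under 20 CPM in every library, so the rule does not count them.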
